A study of Mus musculus with 6 samples.

Results

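Antisense lncRNAs are long noncoding RNAs read from the strand opposite to a known gene and overlapping at least part of its exons. Such transcripts are known to act on the gene across from them at the level of chromatin, transcription, splicing or RNA stability in individual cases, and many have no known role. The gene on the other strand is called the host here. In the table of newly assembled lncRNAs of mouse germline stem cells, 1106 of 18573 transcripts (5.95%) were classed as antisense to a host with a gene name, after hosts with a predicted-gene (Gm) or Riken name had been set aside. They made up 71.3% of the 1551 antisense transcripts and belonged to 698 hosts. Of the hosts, 20 had only a clone name, with 31 of the 1106 transcripts.

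The germline stem cells were SSCs, the spermatogonial stem cells that sustain sperm production, from testis, and FGSCs, female germline stem cells, from ovary. The labels give the strain as C57BL/6 for both and the age as 3 to 5 days (SSCs) and 6 days (FGSCs), whereas the published methods assign these ages the other way round, so sex, tissue and age cannot be told apart. In the published methods the animals carried a Ddx4-Cre transgene, active in the germ line, and an mT/mG reporter that turns from red to green where Cre has acted. The Ddx4-Cre line is named there as FVB and was crossed with the reporter line, which differs from the strain in the labels. Green cells of pooled animals were sorted and those that bound laminin were kept, in both sexes. Each cell type gave 3 strand-specific, rRNA-depleted libraries, but the deposited table holds 1 FPKM value (fragments scaled by transcript length and by the mapped fragments of the library) per transcript for SSCs and 1 for FGSCs. There is therefore no spread between replicates, no test was made, and each difference below is that between 2 pooled values. The read number behind a value is unknown, and only a mark in the table tells whether there were enough alignments for the authors' own test, as was the case for 838 of the 1106 transcripts (75.8%). mRNAs were not analysed here, and none of the 15 germ cell markers listed for a check of the cell types was a host, so the labels could not be checked against marker mRNAs.

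For 4 hosts whose antisense transcripts were among the highest or differed most between the cell types, the bases before the start of the host are shown. Sequences are from RefSeq on GRCm38.p6, written on the host's strand from 5′ to 3′ and ending before the start of the host in RefSeq and in GENCODE M21. Capitals mark 3 promoter motifs, each searched on both strands. The GC box, which binds factors of the Sp family, was searched as GGGCGG. The CCAAT box, which binds the factor NF-Y, was searched by the letters of its name, and the TATA box, bound by the TATA-binding protein, as the letters TATAAA.
Cpsf2, chr12:101975724-101975973 plus strand: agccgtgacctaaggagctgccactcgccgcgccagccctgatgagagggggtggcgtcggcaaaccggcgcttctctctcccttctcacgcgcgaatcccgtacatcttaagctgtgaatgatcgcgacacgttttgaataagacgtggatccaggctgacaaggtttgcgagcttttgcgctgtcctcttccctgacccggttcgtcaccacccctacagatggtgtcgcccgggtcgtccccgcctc
Dnajc19, chr3:34081355-34081604 minus strand: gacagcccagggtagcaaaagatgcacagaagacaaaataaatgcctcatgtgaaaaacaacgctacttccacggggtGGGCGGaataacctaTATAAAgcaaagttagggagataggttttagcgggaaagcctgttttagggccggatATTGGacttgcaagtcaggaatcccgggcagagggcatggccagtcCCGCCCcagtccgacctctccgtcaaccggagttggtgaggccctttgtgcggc
Zfp27, chr7:29906573-29906782 minus strand: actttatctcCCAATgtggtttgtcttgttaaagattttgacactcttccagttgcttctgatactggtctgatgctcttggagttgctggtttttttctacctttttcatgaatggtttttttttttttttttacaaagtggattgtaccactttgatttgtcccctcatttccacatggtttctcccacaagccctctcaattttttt
Zfp74, chr7:29954090-29954315 minus strand: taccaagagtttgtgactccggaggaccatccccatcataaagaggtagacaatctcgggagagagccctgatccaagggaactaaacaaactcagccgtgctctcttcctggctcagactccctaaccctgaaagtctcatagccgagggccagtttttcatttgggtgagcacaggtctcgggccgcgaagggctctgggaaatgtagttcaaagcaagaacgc
The Cpsf2 stretch held 24 CpG dinucleotides and none of the 3 motifs, and the Dnajc19 stretch held 11 CpG, 2 GC boxes, 1 CCAAT box and 1 TATA box. The Zfp27 stretch of 210 bases held no CpG and 1 CCAAT box, and the Zfp74 stretch of 226 bases held 8 CpG and none of the motifs. Over the 250 bases before the start, the 501 hosts with a RefSeq promoter held a GC box in 40.5%, a CCAAT box in 31.5% and a TATA box in 11%, beside 32.7%, 33.8% and 12.4% of the 32851 promoters of all genes in the RefSeq table. The 250-base windows had a median of 8 CpG in the hosts and 6 in the promoters of all genes. Hosts entered with 1 promoter per gene, but the promoters of all genes were not reduced in this way. The sets are thus not counted alike. These matches describe the letters only.

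A further 4 hosts were miRNA genes, and their mature sequences are shown because a transcript across a hairpin would be complementary to the miRNA. They are from RefSeq on GRCm38.p6, and capitals mark the seed (bases 2 to 8), the part of a miRNA that pairs with its targets.
mmu-miR-181a-5p: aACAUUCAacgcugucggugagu
mmu-miR-181a-2-3p: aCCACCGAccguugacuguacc
mmu-miR-219a-5p: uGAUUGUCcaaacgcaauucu
mmu-miR-5615-5p: cUUGGUUGuuuucugagacaga
mmu-miR-5615-3p: uGUCUCAGaaaacaaccaagga
mmu-miR-713: uGCACUGAaggcacacagc
No seed was shared among these 6 sequences. The transcript antisense to Mir181a-2 (chromosome 2), a locus of the miR-181 family with known roles in lymphocyte development, had 2.15 FPKM in SSCs, against 2.27 FPKM in FGSCs. That antisense to Mir5615-2 had 0.922 FPKM in SSCs, against 1.10 FPKM in FGSCs, and that antisense to Mir219a-2 had 0.462 FPKM in SSCs, against 0.236 FPKM in FGSCs. None of these 3 differed by more than 1 in log2(FPKM + 0.5). At Mir713 on chromosome 13 there were 2 transcripts, with 0.697 and 0.529 FPKM in SSCs, against 0.230 and 0.000597 FPKM in FGSCs, and both were higher in SSCs.

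Most of the 1106 transcripts were low. The median was 0.420 FPKM in SSCs (25th to 75th percentile 0.128 to 0.895) and 0.539 FPKM in FGSCs (0.298 to 1.0). A level of 1 FPKM was exceeded in SSCs by 232 transcripts, in FGSCs by 277 and in both by 125, which leaves 107 for SSCs alone and 152 for FGSCs alone. Above 5 FPKM were 20 in SSCs and 30 in FGSCs, with 10 in both, and above 10 FPKM only 4 in SSCs and 7 in FGSCs. A level of 0.5 FPKM was not reached in either cell type by 307 transcripts. A value of 0 was given for 96 transcripts (8.68%) in SSCs, for 59 (5.33%) in FGSCs and for none in both. The share listed at 0 in SSCs was 20.2% among the 15982 intergenic transcripts of the table and 8.76% among the 445 transcripts antisense to Gm or Riken genes, and in FGSCs it was 7.15% and 6.29% in these classes. No test was made of these differences between classes, since transcripts of one locus are not independent.

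Differences are those of log2(FPKM + 0.5), SSCs minus FGSCs, a scale that understates the change of low transcripts, and a transcript is called past the fold where this difference is beyond 1 in either direction. Past the fold were 138 transcripts higher in SSCs (12.5%) and 218 lower in SSCs, that is, higher in FGSCs (19.7%), and 750 lay within it. Over all 18573 transcripts of the table these shares were 15.0% and 20.1%, so that both shares among the antisense transcripts lay near or below the background. The median difference was -0.31 (25th to 75th percentile -0.80 to 0.41), beside -0.44 over all transcripts. Scaling the cell types to equal medians moved the median of all transcripts by 0.11 and quantile normalization by 0.30, both towards SSCs. With these scalings 183 (16.5%) and 166 (15.0%) of the antisense transcripts were past the fold towards SSCs. Towards FGSCs there were 189 (17.1%) and 173 (15.6%), so the lean to FGSCs in the counts rests on the deposited scale. Over all transcripts the shares were then 20.0% and 18.3% towards SSCs and 18.3% and 14.4% towards FGSCs. None of the 356 transcripts past the fold changed sign under either scaling, and 327 and 303 of them remained past it. Among the 138, 46 were listed at 0 in FGSCs, and among the 218, 62 were listed at 0 in SSCs. The median level of the transcripts listed at 0 in SSCs was 0.646 FPKM in FGSCs, and 17 of them were above 1 FPKM there. Those listed at 0 in FGSCs had a median of 0.844 FPKM in SSCs, with 21 above 1 FPKM.

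**Figure D1:**
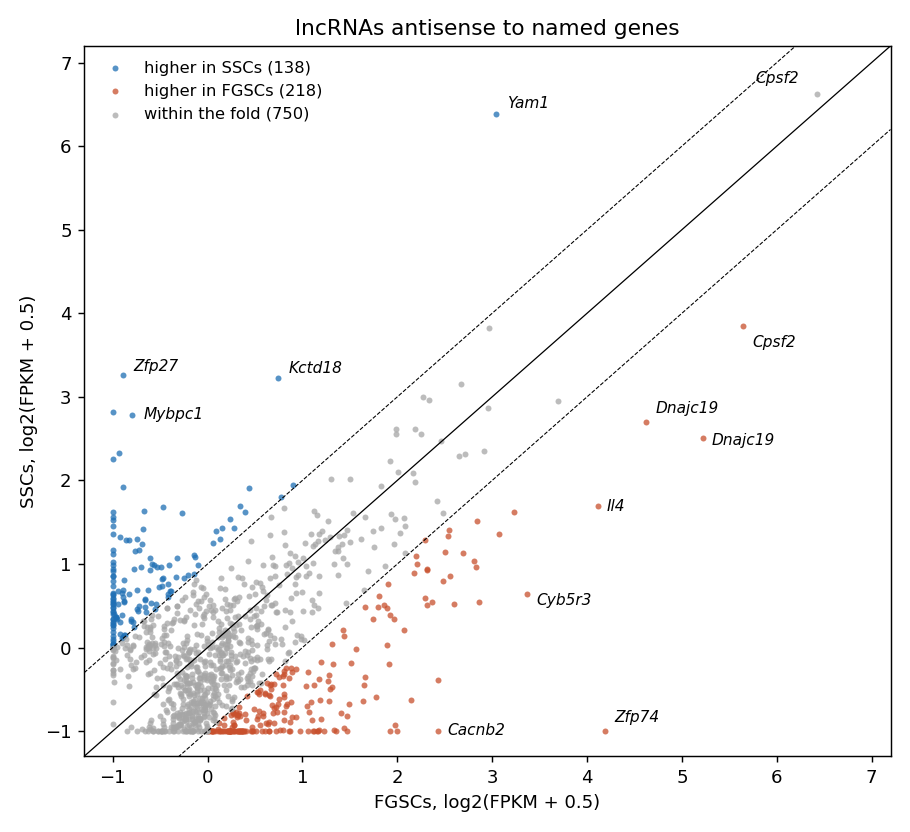
Level of each of the 1106 antisense lncRNAs in SSCs (vertical axis) against FGSCs (horizontal axis), both as log2(FPKM + 0.5). The solid line marks equal values and the dashed lines a difference of 1, with 138 transcripts above the upper and 218 below the lower dashed line. Points at -1 on an axis are listed at 0 in that cell type.

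The highest transcripts lay across from Cpsf2, which encodes a subunit of the cleavage and polyadenylation specificity factor that cuts the 3′ end of mRNAs. TCONS_00036673 had 98.6 FPKM in SSCs, against 85.6 FPKM in FGSCs, the highest value of the 1106 in either cell type. Its neighbour TCONS_00036672 had 14.0 FPKM in SSCs, against 49.5 FPKM in FGSCs, a log2 difference of -1.79. The first of these transcripts was therefore close in the cell types, and the second was lower in SSCs. The difference of the first was 0.20 on the deposited scale and -1.05 after quantile normalization. The locus of both spans chr12:101968097-102006423 (mm10). In GENCODE M21, Ndufb1-ps, named as a pseudogene of a respiratory complex I subunit and typed as a bidirectional-promoter lncRNA, lies on the strand of these transcripts and shares 1081 bp with Cpsf2, and the promoter stretch of Cpsf2 shown above lies within it.

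At Yam1 on chromosome 17, a noncoding RNA gene that GENCODE M21 calls Gm42418, TCONS_00066600 had 83.4 FPKM in SSCs, against 7.75 FPKM in FGSCs, a log2 difference of 3.35. This was the second highest antisense transcript in SSCs and the highest value past the fold towards SSCs. Its locus, chr17:39842996-39848831, also holds an annotated rRNA gene, CT010467.1, on the strand of the transcript, which covers the host over 1831 bp. The libraries had been depleted of rRNA, and the part that the remaining rRNA has in this value was not tested. Together Cpsf2 and Yam1 took 19.7% of the summed FPKM of the 1106 transcripts in SSCs.

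Dnajc19, which encodes a J-domain protein of the import motor at the inner mitochondrial membrane, was the host of 2 transcripts that were both lower in SSCs. TCONS_00092546 had 5.19 FPKM in SSCs, against 36.9 FPKM in FGSCs, a log2 difference of -2.71. TCONS_00092547 had 6.00 FPKM in SSCs, against 24.2 FPKM in FGSCs, a log2 difference of -1.93. Both sat at chr3:34008016-34081321, and Fxr1, a gene for an RNA-binding protein of the fragile X family, lies on their strand and shares 14303 bp with Dnajc19. Whether such a transcript belongs to the coding gene on its own strand could not be read from the table, which gives a locus but no exons.

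The pair of most opposite transcripts came from neighbouring zinc finger genes on chromosome 7, both on the minus strand. TCONS_00132418, antisense to Zfp27, had 9.09 FPKM in SSCs, against 0.0384 FPKM in FGSCs, a log2 difference of 4.16. TCONS_00132432, antisense to Zfp74, was listed at 0 in SSCs and had 17.8 FPKM in FGSCs. The second transcript at Zfp74, TCONS_00132433, had 0.00362 FPKM in SSCs, against 1.2 FPKM in FGSCs. The loci, chr7:29877643-29906572 and chr7:29930353-29955992, are 23780 bp apart, and their antisense transcripts were each close to absent in the other cell type. Zinc finger genes of this kind come in clusters of near copies, between which short reads can be misassigned, which was not tested.

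Several other single transcripts reached high values in one cell type. At Il4, the gene of a cytokine of type 2 helper T cells, TCONS_00020241 had 2.74 FPKM in SSCs, against 16.8 FPKM in FGSCs. At Cyb5r3, a gene for a cytochrome b5 reductase, TCONS_00051074 had 1.05 FPKM in SSCs, against 9.83 FPKM in FGSCs. At Kctd18, TCONS_00001220 had 8.84 FPKM in SSCs, against 1.17 FPKM in FGSCs, and the strand of this transcript carries Sgo2a, the gene of a shugoshin that protects centromeric cohesion in meiosis, over 22986 bp of Kctd18. The first 2 were lower in SSCs, with log2 differences of -2.42 and -2.73, and the third was higher in SSCs, with 2.48. At Mybpc1, a myosin-binding protein gene of slow skeletal muscle, TCONS_00014024 had 6.37 FPKM in SSCs, against 0.0771 FPKM in FGSCs. At Nfkbil1, TCONS_00062609 had 3.29 FPKM in SSCs, against 0.0386 FPKM in FGSCs, and at the clone-named host RP23-273G4.1, TCONS_00001031 had 4.51 FPKM in SSCs, against 0.0249 FPKM in FGSCs. All 3 were among the 10 largest differences towards SSCs, as was TCONS_00129207 at Cntn6, a contactin gene, with 2.58 FPKM in SSCs and listed at 0 in FGSCs.

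The largest differences towards FGSCs included hosts of calcium channels and transcription factors. The transcript at Cacnb2, an auxiliary calcium channel subunit gene, was listed at 0 in SSCs and had 4.90 FPKM in FGSCs. That at Otx1, a homeobox gene of brain development, had 0.0246 FPKM in SSCs, against 3.44 FPKM in FGSCs. That at Prdm2, a histone methyltransferase gene, had 0.145 FPKM in SSCs, against 3.93 FPKM in FGSCs, and that at Car8, of the carbonic anhydrase family, was listed at 0 in SSCs and had 2.27 FPKM in FGSCs. Each of these 4 was at least 2 FPKM in FGSCs and below 0.2 FPKM in SSCs. At Fermt1, a kindlin gene of epithelial adhesion, 3 of 4 transcripts were listed at 0 in SSCs and the other had 0.00349 FPKM, against 1.84 to 3.51 FPKM in FGSCs.

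**Figure D2:**
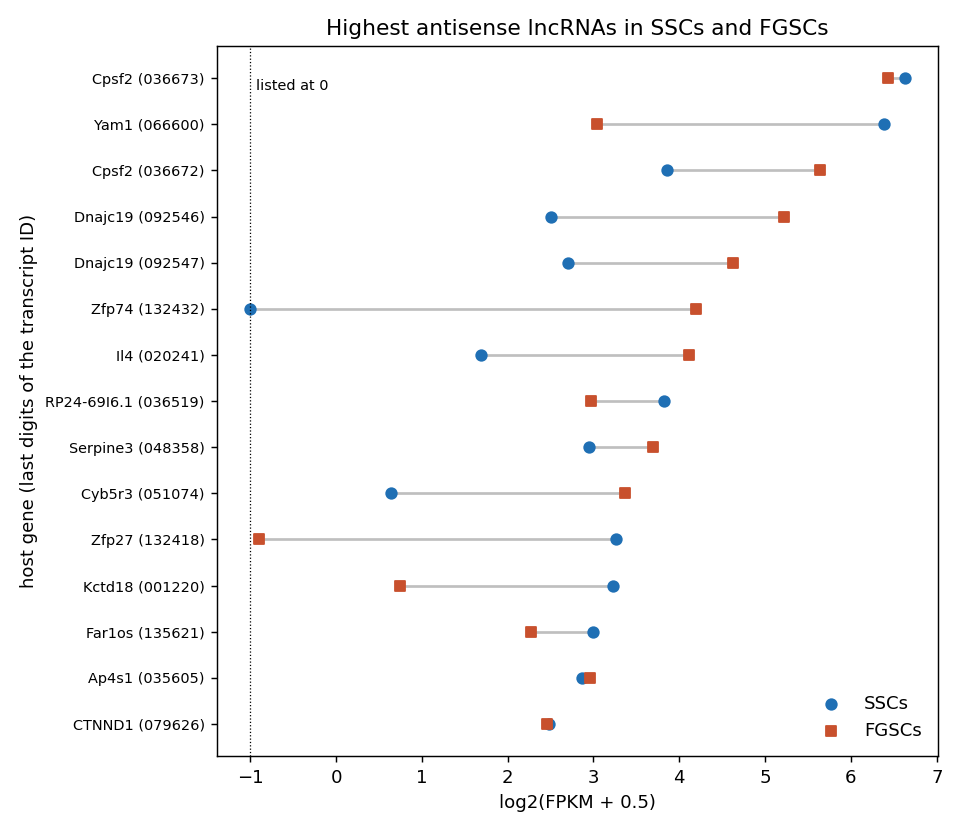
Antisense lncRNAs among those with the highest values, as log2(FPKM + 0.5) in SSCs (blue circles) and FGSCs (red squares), 1 row per transcript ordered by the higher value. The first Cpsf2 transcript is nearly equal in the cell types, Yam1 and Zfp27 are higher in SSCs, and Dnajc19, Il4 and Zfp74, at 0 in SSCs, are higher in FGSCs.

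Transcripts high in both cell types were few, and 10 exceeded 5 FPKM in both. Beside the 2 at Cpsf2, the 2 at Dnajc19 and the 1 at Yam1, these included transcripts at Serpine3, RP24-69I6.1, Ap4s1 and CTNND1. At Ap4s1, a subunit gene of the AP-4 vesicle coat, TCONS_00035605 had 6.80 FPKM in SSCs, against 7.26 FPKM in FGSCs, with Strn3 on its strand. At CTNND1, so spelled in the table, TCONS_00079626 had 5.06 FPKM in SSCs, against 5.01 FPKM in FGSCs. The clone-named host RP24-69I6.1 had 13.6 FPKM in SSCs, against 7.34 FPKM in FGSCs. None of these 3 was past the fold, and the sign of the difference at Ap4s1 and CTNND1 turned with the scaling. At Serpine3, TCONS_00048358 had 7.21 FPKM in SSCs, against 12.5 FPKM in FGSCs, the highest of 4 transcripts there that had 2.46 to 7.21 FPKM in SSCs and 2.66 to 12.5 FPKM in FGSCs. Ints6, a subunit gene of the Integrator complex, lies on their strand over 15914 bp of Serpine3.

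Several antisense transcripts at one host were common. Of the 698 hosts, 204 carried 2 or more and together held 612 of the transcripts (55.3%), 81 carried 3 or more and 18 carried 5 or more. At 44 of the 204 every transcript was higher in SSCs, at 108 every transcript was higher in FGSCs, and 52 held both directions on the deposited scale. Only 2 hosts, Fgfr2 and Spon1, had transcripts past the fold in both directions. The transcripts of a host lie in 1 locus, so they share their reads or their neighbourhood and do not count as independent.

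Pcdh15, a protocadherin gene of sensory hair cells, carried the most, with 28 at chr10:73099142-74646314. They had 0.253 to 6.57 FPKM in SSCs and 0 to 0.168 FPKM in FGSCs, 15 of them listed at 0 in FGSCs. Their total was 38.9 FPKM in SSCs, against 0.627 FPKM in FGSCs. All 28 were higher in SSCs and 27 were past the fold, which is 27 of the 138 in all. At Lrrtm3 on the same chromosome, a gene of a synaptic leucine-rich repeat protein with Ctnna3 on the other strand, all 12 transcripts were higher in SSCs but none was past the fold, with 0.328 to 0.749 FPKM in SSCs and 0.138 to 0.373 FPKM in FGSCs.

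The opposite lean was measured at Cux1, a homeobox gene on chromosome 5, where all 11 transcripts were lower in SSCs and 10 were past the fold. Counts past the fold in this paragraph are those on the deposited scale. They had 0 to 0.281 FPKM in SSCs, 4 of them listed at 0, and 0.479 to 2.65 FPKM in FGSCs, with sums of 0.941 in SSCs and 11.2 in FGSCs. At Iqch, a gene named for a calmodulin-binding motif, all 11 were lower in SSCs as well, with sums of 1.56 FPKM in SSCs, against 9.01 FPKM in FGSCs, and 2 were past the fold. At Cacna1d, a voltage-gated calcium channel gene on chromosome 14, the 5 transcripts had a total of 6.33 FPKM in SSCs, against 22.5 FPKM in FGSCs, and 4 were past the fold. Coding genes, among them Chdh, lie on their strand. All 5 at Lrrn3, with the coding gene Immp2l on their strand, were past the fold, with sums of 1.26 FPKM in SSCs, against 5.79 FPKM in FGSCs. Their differences ran from -1.12 to -0.95 with equal medians and from -1.07 to -0.84 after quantile normalization, so some then lay within the fold. Thus, on the deposited scale, 4 hosts with 5 or more transcripts had every one lower in SSCs and at least 2 past the fold. These 4 lie on chromosomes 5, 9, 14 and 12.

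At Fgfr2, the gene of a fibroblast growth factor receptor, 11 transcripts had a total of 18.0 FPKM in SSCs, against 47.3 FPKM in FGSCs. Of these, 10 had 1.01 to 2.56 FPKM in SSCs and 2.33 to 7.89 FPKM in FGSCs. On the deposited scale 7 were past the fold towards FGSCs. The other, TCONS_00136561, had 1.05 FPKM in SSCs and was listed at 0 in FGSCs. Their locus spans 2961904 bp and also holds the 2 transcripts at Btbd16, with a sum of 1.21 FPKM in SSCs, against 0.0138 FPKM in FGSCs. Coding genes, among them Tacc2, Btbd16 and Plekha1, lie on the strand of the 11 at Fgfr2. Whether the 11 belong to these genes could not be read from the table. At Spon1, an extracellular matrix gene on chromosome 7, TCONS_00142403 and TCONS_00142404 had 1.60 and 1.27 FPKM in SSCs, against 0.299 and 0.217 FPKM in FGSCs. The other 3 at Spon1 were listed at 0 in SSCs and had 0.195 to 1.58 FPKM in FGSCs.

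Other hosts with many transcripts showed little difference. The 18 at Hdac8, a histone deacetylase gene on the X chromosome, had 0 to 0.989 FPKM in SSCs and 0.229 to 1.03 FPKM in FGSCs, with 3 higher in SSCs and 2 past the fold towards FGSCs. At Nr6a1os the 7 transcripts had 1.18 to 2.05 FPKM in SSCs and 1.19 to 2.21 FPKM in FGSCs. They run on the strand of Nr6a1, the germ cell nuclear factor gene, in the same locus as the transcript at Mir181a-2. The 8 at Slc2a2, a glucose transporter gene, summed to 4.44 FPKM in SSCs, against 4.62 FPKM in FGSCs. The 8 at Pcca, a mitochondrial carboxylase subunit gene, summed to 5.00 FPKM in SSCs, against 2.79 FPKM in FGSCs, with 1 past the fold and the coding gene Ggact on their strand. None of these 4 hosts had more than 2 transcripts past the fold.

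Among hosts with 3 or 4 transcripts, some were uniform, in either direction. Towards FGSCs, all 3 at Ceacam1 were past the fold on the deposited scale, with 0.179 to 0.320 FPKM in SSCs and 0.958 to 1.59 FPKM in FGSCs. So were all 3 at Gif and, as described above, all 4 at Fermt1. The examples that follow were higher in SSCs. At Paqr3 the 4 transcripts had 1.48 to 3.24 FPKM in SSCs and 0.430 to 0.851 FPKM in FGSCs, and all were past the fold towards SSCs. The coding gene Bmp2k lies on their strand. At Pam16, whose product works in the same mitochondrial import motor as that of Dnajc19, the 3 transcripts had 2.41, 2.13 and 1.66 FPKM in SSCs, against 0.682, 0.565 and 0.405 FPKM in FGSCs. All 3 were past the fold towards SSCs, the opposite of the pair at Dnajc19. The coding gene Glis2 lies on the strand of the 3, as Fxr1 does at Dnajc19, and whether these transcripts belong to such a gene could not be read from the table. At Fam196a, with the coding gene Dock1 on their strand, all 3 were also higher in SSCs, with sums of 3.77 FPKM in SSCs, against 0.569 FPKM in FGSCs. At Far1os the 3 transcripts, on the strand of Far1, a gene of ether lipid synthesis, had 5.38 to 7.48 FPKM in SSCs and 4.26 to 4.55 FPKM in FGSCs, within the fold. At Serpinb2, a serpin gene of macrophages and keratinocytes, 4 transcripts had a total of 3.40 FPKM in SSCs, against 0.107 FPKM in FGSCs, where 3 were listed at 0.

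**Figure D3:**
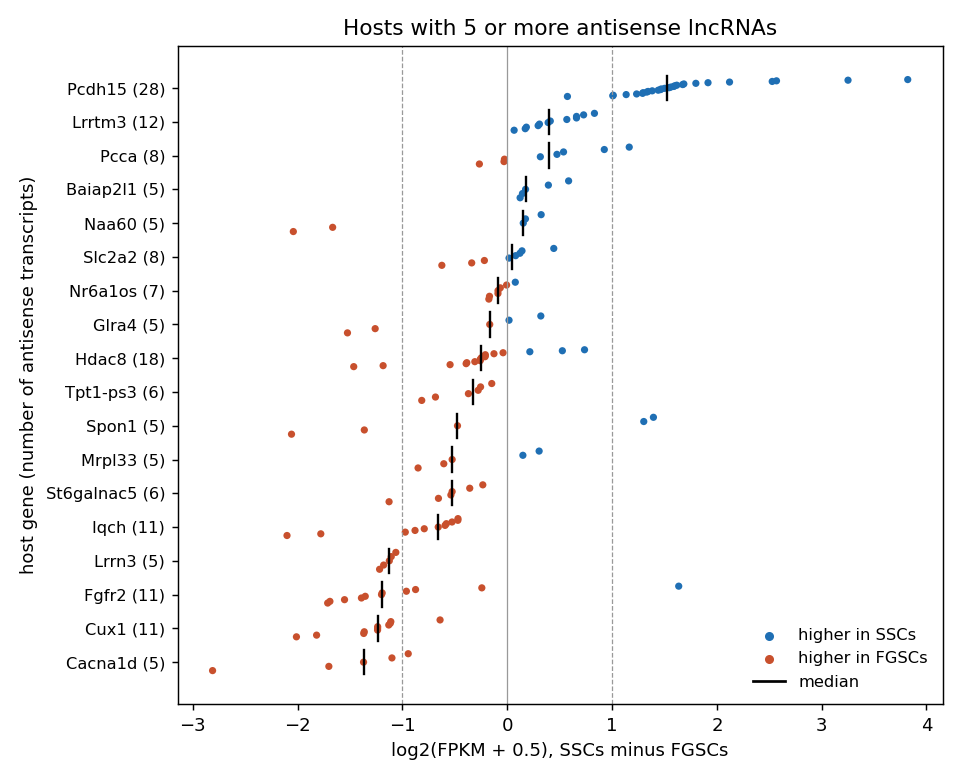
Difference in log2(FPKM + 0.5), SSCs minus FGSCs, of every antisense transcript at the 18 hosts with 5 or more (1 point per transcript, blue higher in SSCs, red higher in FGSCs). Black bars are medians and dashed lines mark a difference of 1. All 28 points of Pcdh15 lie above 0, all 11 of Cux1 below 0, and Fgfr2 and Spon1 have points beyond both dashed lines.

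Among genes of germ cells and meiosis, a list of 182 name patterns held 11 hosts with 14 transcripts. Their median difference on the deposited scale was -0.20. On that scale 1 (7.14%) was past the fold towards SSCs and 5 (35.7%) towards FGSCs, beside 15.0% and 20.1% of all transcripts. With equal medians these counts were 4 and 3, and after quantile normalization 3 and 3, with medians of -0.03 and -0.02, so that the lean to FGSCs was not kept. The highest was at Oaz3, the antizyme gene of haploid male germ cells, with 0.769 FPKM in SSCs, against 3.40 FPKM in FGSCs. Tdrkh, a gene of the piRNA pathway, which silences transposons in germ cells, lies on its strand over 2255 bp. At Pld6, an endonuclease gene of the same pathway, the transcript had 0.573 FPKM in SSCs, against 1.48 FPKM in FGSCs, within the fold. At Sohlh2, a transcription factor gene of early spermatogonia and oocytes, the values were 0.204 FPKM in SSCs, against 0.970 FPKM in FGSCs. At Pinx1, a gene of a telomerase inhibitor, they were 0.269 FPKM in SSCs, against 1.76 FPKM in FGSCs. Those at Oaz3, Sohlh2 and Pinx1 were past the fold towards FGSCs, as were the higher of 2 at Spata9, with 0.0811 FPKM in SSCs, against 1.12 FPKM in FGSCs, and the 1 at Prss37, a gene of sperm function, with 0.112 FPKM in SSCs, against 0.756 FPKM in FGSCs. Those at Sohlh2 and Prss37 were within the fold after either scaling.

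The other germ cell hosts leaned to SSCs or were level. At Calr3, a testis calreticulin gene, the transcript had 1.15 FPKM in SSCs, against 0.453 FPKM in FGSCs. The 3 at Lelp1 had 0.529, 0.50 and 0.139 FPKM in SSCs and were listed at 0 in FGSCs, and so was that at Catsperd, a subunit gene of the sperm calcium channel, with 0.490 FPKM in SSCs. On the deposited scale the highest of Lelp1 was the only one past the fold towards SSCs in this list. At Sall1, a zinc finger gene, the values were 0.488 FPKM in SSCs, against 0.0657 FPKM in FGSCs, and at Best1, a chloride channel gene, 0.743 FPKM in SSCs, against 0.583 FPKM in FGSCs. Catsperb, of the same sperm channel but not in the list, carried 3 transcripts with sums of 0.382 FPKM in SSCs, against 1.58 FPKM in FGSCs. The highest value of this list in SSCs was the 1.15 FPKM at Calr3.

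Mitochondrial hosts numbered 16 with 21 transcripts, all above 0 in both cell types, with a median difference of -0.52. Of these, 1 (4.76%) was past the fold towards SSCs and 5 (23.8%) towards FGSCs, beside 15.0% and 20.1% of all transcripts. Of the 5, 3 were the pair at Dnajc19 and the transcript at Cyb5r3. The other 2 were at Tmem126b, a gene of complex I assembly, with 0.372 FPKM in SSCs, against 2.0 FPKM in FGSCs, and at Nudt9, a gene of ADP-ribose hydrolysis, with 0.384 FPKM in SSCs, against 1.80 FPKM in FGSCs. The only one of this list past the fold towards SSCs was at Slc25a47, a carrier gene of the inner membrane, with 1.40 FPKM in SSCs, against 0.154 FPKM in FGSCs. At Mrpl33, a gene of the mitochondrial ribosome, the 5 transcripts had 0.132 to 1.06 FPKM in SSCs and 0.361 to 0.911 FPKM in FGSCs, and none was past the fold. Pam16 and Pcca, described above, were not in this list, and all 3 transcripts at Pam16 and 1 of 8 at Pcca were past the fold towards SSCs. The 23.8% of the list towards FGSCs lay near the 20.1% of all transcripts, and its counts depend on which genes it holds.

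RNA-processing hosts numbered 9 with 11 transcripts, with a median difference of -0.64. On the deposited scale none was past the fold towards SSCs and 4 (36.4%) were past it towards FGSCs, beside 15.0% and 20.1% of all transcripts. With equal medians 1 was past it towards SSCs and 4 towards FGSCs, and after quantile normalization 1 and 5, the fifth being the first Cpsf2 transcript. At Srek1ip1, a gene of a splicing-associated protein, the 2 transcripts had 1.56 and 0.939 FPKM in SSCs, against 6.52 and 5.54 FPKM in FGSCs. Cwc27, itself a gene of the spliceosome, lies on their strand over 24659 bp of Srek1ip1. At Lsm14a, a gene of cytoplasmic mRNA bodies, the values were 0.486 FPKM in SSCs, against 2.46 FPKM in FGSCs. The fourth was the second transcript at Cpsf2. At Zcchc18 on the X chromosome the values were 0.550 FPKM in SSCs, against 1.39 FPKM in FGSCs, within the fold, and the remaining 5 were at Celf3, Cpsf4l, Elavl4, Qk and Rpp38, with at most 1.14 FPKM in SSCs and at most 0.594 FPKM in FGSCs.

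Signalling hosts were the largest list, with 60 hosts and 98 transcripts. Of these, 4 (4.08%) were past the fold towards SSCs and 28 (28.6%) towards FGSCs, beside 15.0% and 20.1% of all transcripts. The median difference was -0.62, and 13 were listed at 0 in SSCs and 3 in FGSCs. Of the 28, 7 were at Fgfr2, where coding genes lie on the strand of the transcripts. With equal medians 7 were past the fold towards SSCs and 22 towards FGSCs, and after quantile normalization 5 and 21, with medians of -0.46 and -0.41. Il4 and Fgfr2 gave the highest values in FGSCs, while 4 hosts with 12 transcripts entered by their name only and do not themselves signal in the sense of the list (Jakmip2, Ephx4, Nr6a1os and Nfkbil1), and without them 3 of 86 transcripts were past the fold towards SSCs and 25 towards FGSCs. Some further hosts, named after their values were seen, show the range. At Mob1b, of the Hippo pathway, the transcript had 0.373 FPKM in SSCs, against 3.25 FPKM in FGSCs. At Rptor, a gene of the mTORC1 growth pathway, the transcript had 1.42 FPKM in SSCs and was listed at 0 in FGSCs, and at Pdgfb, a growth factor gene, the values were 2.45 FPKM in SSCs, against 1.10 FPKM in FGSCs. At Smad3, a mediator of TGF-beta signals, 2 transcripts had 0.589 and 0.355 FPKM in SSCs and 0.658 and 0.482 FPKM in FGSCs.

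Further lists gave the same kind of count. Chromatin and transcription, with 41 hosts and 76 transcripts, had 6 (7.89%) past the fold towards SSCs and 22 (28.9%) towards FGSCs, beside 15.0% and 20.1% of all transcripts. Of the 22, 10 were at Cux1, and the highest in the list were the transcripts at Zfp74 and Zfp27. At Zfp286 the values were 1.94 FPKM in SSCs, against 0.0506 FPKM in FGSCs, at Zfp787 the higher of 2 transcripts had 0.597 FPKM in SSCs, against 2.21 FPKM in FGSCs, and at Mbd3, a subunit gene of a deacetylase complex, they were 1.03 FPKM in SSCs, against 3.00 FPKM in FGSCs. At Ncor1, a corepressor gene, 2 transcripts had 2.40 and 2.25 FPKM in SSCs and 3.42 and 3.73 FPKM in FGSCs, within the fold. Zinc finger hosts thus held the most extreme values in both directions.

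Hosts of the cytoskeleton and cilia, 34 with 64 transcripts, had 5 (7.81%) past the fold towards SSCs and 20 (31.25%) towards FGSCs, beside 15.0% and 20.1% of all transcripts. Without 5 hosts that match by name only, 11 of 50 (22%) were past it towards FGSCs. At Ift88, a gene of transport within cilia, the transcript had 0.921 FPKM in SSCs, against 4.48 FPKM in FGSCs, and at Clip4 it had 0.165 FPKM in SSCs, against 2.92 FPKM in FGSCs. At Ccdc114, a gene of ciliary dynein docking, it had 2.71 FPKM in SSCs, against 0.223 FPKM in FGSCs, and the 3 at Ttc21a had 0.532 to 0.844 FPKM in SSCs and were listed at 0 in FGSCs. At Tmem67, a gene of the ciliary transition zone, it had 3.78 FPKM in SSCs, against 3.52 FPKM in FGSCs. Cilia genes therefore had antisense transcripts towards either cell type.

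DNA repair and cell cycle hosts, 15 with 24 transcripts, had 2 (8.33%) past the fold towards SSCs and 3 (12.5%) towards FGSCs, beside 15.0% and 20.1% of all transcripts. Of the 2, 1 was at Madcam1, a gene of an adhesion molecule that matched by name only, which leaves 1 of 23 without it. The median difference of -0.08 turned positive after either scaling, with 5 and 4 then past the fold towards SSCs. Of all transcripts, 20.0% and 18.3% were then past it towards SSCs. At Xrcc6, which encodes the Ku70 end-joining protein, the 3 transcripts had 2.73, 2.70 and 2.36 FPKM in SSCs, against 0.768, 1.25 and 1.91 FPKM in FGSCs, all higher in SSCs and 1 past the fold. The coding gene Desi1 lies on their strand. At Ercc6l2, of a repair helicase family, the highest of 3 had 0.377 FPKM in SSCs, against 2.35 FPKM in FGSCs. At Wee1, a kinase gene that holds back mitosis, the values were 2.13 FPKM in SSCs, against 1.81 FPKM in FGSCs. Immune and blood cell hosts, 25 with 34 transcripts, had 1 (2.94%) past the fold towards SSCs and 13 (38.2%) towards FGSCs, and 2 and 9 after either scaling. Among the 13 were Gp1ba, a platelet receptor gene, with 2.35 FPKM in SSCs, against 6.67 FPKM in FGSCs, and Cd80, a costimulatory ligand gene, with 0.0496 FPKM in SSCs, against 1.65 FPKM in FGSCs.

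Odorant and pheromone receptor hosts, 11 with 13 transcripts, had 5 (38.5%) past the fold towards SSCs and 4 (30.8%) towards FGSCs, beside 15.0% and 20.1% of all transcripts. The 5 were at neighbouring vomeronasal receptor genes of chromosome 5, 3 of them at Vmn2r-ps21 with 1.39, 0.820 and 0.704 FPKM in SSCs, 1 at Vmn2r11 with 0.994 FPKM and 1 at Vmn2r12 with 0.554 FPKM, and all 5 were listed at 0 in FGSCs. The transcripts at Olfr1121 and Olfr1122 on chromosome 2 were listed at 0 in SSCs and had 0.787 and 1.47 FPKM in FGSCs. Receptor genes of these families are near copies of each other, so the assignment of reads among them is uncertain. Hosts that are small or structural RNA genes were 8 with 9 transcripts, of which those at Yam1 and the second at Mir713 were past the fold towards SSCs and none towards FGSCs on the deposited scale, against 1 after quantile normalization. Imprinted hosts were 4 with 7 transcripts. Only that at Impact was past the fold, with 0.141 FPKM in SSCs, against 1.92 FPKM in FGSCs, while the 2 at Gnas had 1.5 and 0.982 FPKM in SSCs and 2.27 and 1.64 FPKM in FGSCs. Hosts that mark somatic cells numbered 5 of 36 markers, 1 or 2 for each of Sertoli, Leydig, smooth muscle cells and macrophages. Of their transcripts, that at Hsd3b1, a gene of steroid synthesis in Leydig cells, had 0.0136 FPKM in SSCs, against 2.21 FPKM in FGSCs, and that at Actg2, a smooth muscle actin gene, had 0.240 FPKM in SSCs, against 1.13 FPKM in FGSCs. An antisense transcript at a marker gene does not measure that marker's mRNA.

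**Figure D4:**
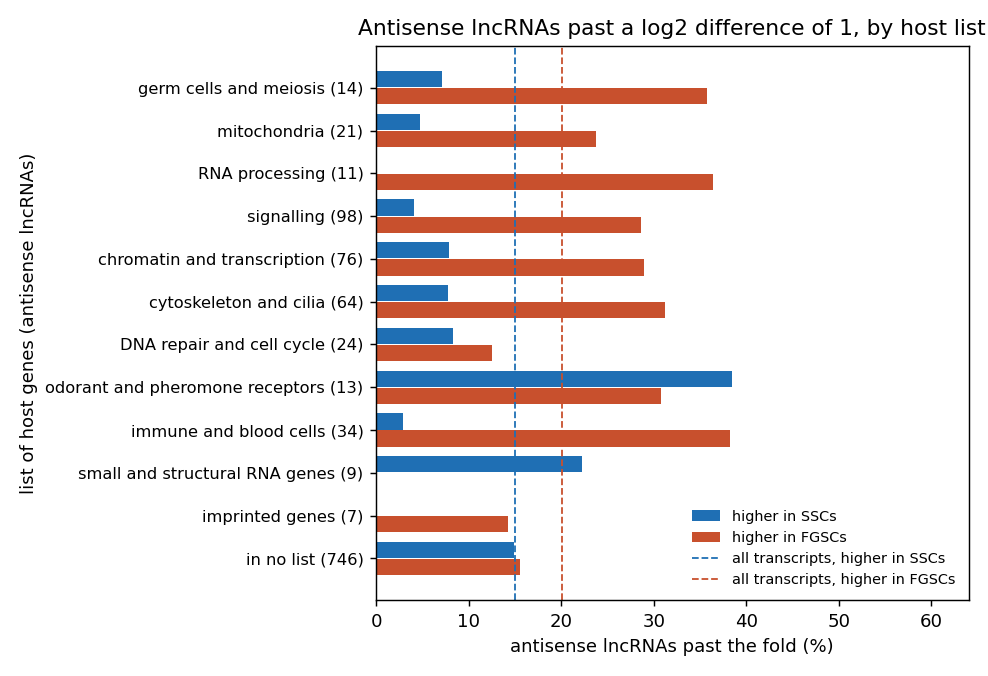
Share of antisense lncRNAs past a log2 difference of 1 in each list of host genes, higher in SSCs (blue) and higher in FGSCs (red), with the number of transcripts in parentheses. Dashed lines give the shares over all 18573 transcripts, 15.0% and 20.1%. The largest share towards FGSCs is 38.2%, in the immune and blood cell list, signalling has 28.6%, and the 746 transcripts in no list lie near 15% in both directions.

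The transcripts in no list, 746 at 474 hosts, had 111 past the fold towards SSCs (14.9%) and 116 towards FGSCs (15.5%), beside 15.0% and 20.1% of all transcripts. On the X chromosome, 0 of 48 antisense transcripts were past the fold towards SSCs and 12 (25%) towards FGSCs on the deposited scale, beside 6.91% and 27.0% of the 666 transcripts of all classes on that chromosome. Of the 48, 18 were at Hdac8 and 5 at Glra4, each host at 1 locus with 2 transcripts past the fold towards FGSCs, so the 48 are not independent. Male cells carry 1 X chromosome, and its part in these counts was not tested. No antisense transcript of the set lay on the Y chromosome.

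The levels are also given by what is annotated on the strand of the antisense transcript itself. Host transcripts were matched to GENCODE M21 for 1094 of the 1106. For 1015 antisense transcripts the locus in the table spans the whole host transcript, so that their position within the host is not known. Counted once per antisense transcript, the median locus length was 54991 bp. Over the part of the host transcript within the locus, a protein-coding gene lay on the other strand in 271 cases, a lncRNA gene but no coding gene in 257, another kind of gene in 55 and no gene in 511. The 271 include transcripts named above without mention of that gene, among them those at CTNND1, Nfkbil1, Ncor1 and Zfp286. The 257 likewise include the transcripts at Pcdh15, Cux1, Iqch and Yam1 and most of those at Hdac8. The lncRNA genes on their strands include Gm15398, Gm16599, Gm16759, AY036118 and Gm14858, in that order. With a coding gene on their own strand, the transcripts had medians of 0.853 FPKM in SSCs, against 0.740 FPKM in FGSCs, and values of 0 made up 1.85% of them in SSCs and 2.95% in FGSCs. With no gene there, the medians were 0.307 FPKM in SSCs, against 0.482 FPKM in FGSCs, with values of 0 for 11.7% in SSCs and 4.89% in FGSCs. Past the fold were 39 of the 271 (14.4%) towards SSCs and 47 (17.3%) towards FGSCs, and 45 of the 511 (8.81%) towards SSCs and 97 (19%) towards FGSCs. Over all transcripts of the table these shares were 15.0% and 20.1%. Of the 4 groups, that with a coding gene on its own strand had the highest medians and the lowest shares at 0 in both cell types, and no test of this was made. It also had the highest median locus length, again taken over transcripts, with 166460 bp, against 18326 bp in the group with no gene. The part of locus length was not tested. The library preparation kept the strand, but whether it was used in counting is not given in the sources used here, and reads of the host itself cannot then be told apart from antisense reads.

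**Figure D5:**
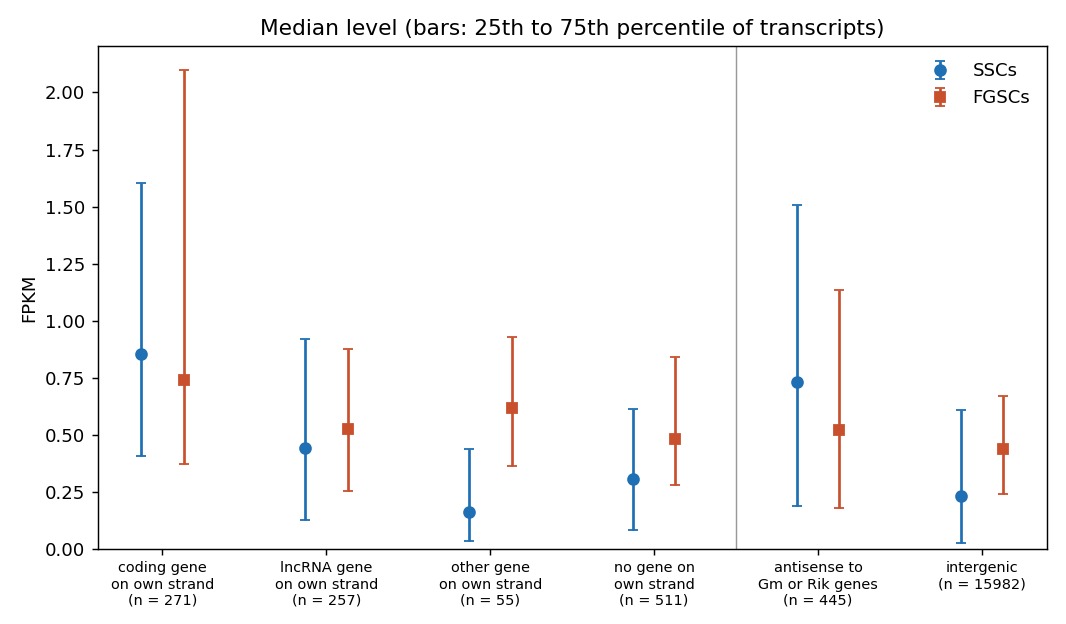
Median FPKM in SSCs (blue circles) and FGSCs (red squares) of the antisense lncRNAs by the gene annotated on their own strand (left of the line), and of the transcripts antisense to Gm or Riken genes and the intergenic transcripts (right). Bars run from the 25th to the 75th percentile of transcripts, not over replicates. The 271 with a coding gene on their strand have the highest medians, 0.853 in SSCs and 0.740 in FGSCs.

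Neighbouring hosts did not always lean the same way. Among 65 pairs of adjacent hosts whose loci lie within 50000 bp or overlap, the summed FPKM differed in the same direction in 34 pairs and in opposite directions in 31. Both hosts were past the fold in 13 pairs, in the same direction in 10 and in opposite directions in 3, which were Zfp27 and Zfp74, Tbc1d23 and Cmss1, and Btbd16 and Fgfr2. Pairs in the same direction included Hsd3b1 and Hao2 on chromosome 3, both lower in SSCs, with Hao2 at a sum of 0.0164 FPKM in SSCs, against 1.52 FPKM in FGSCs. They also included Cacnb2 and Arl5b on chromosome 2, where Arl5b summed to 0.350 FPKM in SSCs, against 2.11 FPKM in FGSCs, and Pam16 and Coro7 on chromosome 16, where Coro7 had 0.612 FPKM in SSCs, against 0.0423 FPKM in FGSCs.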

How the data were processed

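SSCs and FGSCs were sequenced as 3 libraries each. Per the submitters' processing notes, the authors used TopHat2, Cufflinks and Cuffdiff 2.1.1 on mm10, and the methods add Scripture for assembly and limits on length, exons, coverage and coding potential. The deposited FPKM values, 1 per transcript and cell type, come from the authors' Cuffdiff run over 3 libraries, so no depth per transcript, SD or test is available here. Columns with the authors' fold changes and p-values were not used.

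Transcripts with class code x and a host name other than Gm plus digits or ending in Rik were kept. Starts were raised by 1 base to count from 1. Differences are log2(FPKM + 0.5), SSCs minus FGSCs, with no filter on low values, and past the fold means beyond 1. Named transcripts are the 8 highest in each cell type, the 10 largest differences in each direction, hosts with 3 or more transcripts, the highest 6 and up to 4 more past the fold of each of 11 lists, those above 5 FPKM in both, and those at marker genes and Dnajc19. Some items are not reported here. Further names were picked with their values in view. The members and lists were chosen with earlier results of these data known. Calculations in Python 3.11.15 relied on pandas 2.3.3 and NumPy 2.4.6, with figures from matplotlib 3.10.9, were tested on simulated data, and took annotation from GENCODE M21 and RefSeq. Alternatives in pseudocount, filter, scaling, status, hosts and fold were tried.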

Additional observations from a re-analysis of the deposited data

How the results depend on the processing

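The number of antisense transcripts past the fold depended on the pseudocount. With 0.1 FPKM added it was 237 towards SSCs and 438 towards FGSCs, and with 1 FPKM added 55 and 96, in place of 138 and 218, and the median difference was -0.55 and -0.20. Among transcripts that reached 1 FPKM in one cell type 83 and 137 of 384 transcripts were past it, and beyond a log2 difference of 2 there were 23 and 32. With 1 transcript per host 88 of 698 were past it towards SSCs, a share of 12.6% beside 12.5% in the main count. The median difference was -0.15 with equal medians and -0.090 after quantile normalization, in place of -0.31. Below 0.1 FPKM lay 22.1% of the transcripts in SSCs and 11.1% in FGSCs, in place of 8.68% and 5.33% listed at 0. The counts under the other alternatives stayed within 1.5 times. They include removal of transcripts with a coding gene on their own strand, chosen after seeing the data, which left 99 and 171 of 835. A filter of at least 0.5 FPKM in SSCs or FGSCs could not change the counts, because any transcript past the fold exceeds that level. It left 799 transcripts, so that the shares past the fold were 17.3% and 27.3%. Of 441 named transcripts, 30 changed sides of the fold limit under each scaling, and 96 and 84 with the lower and the higher pseudocount, while 0 of those past it changed sign. No paired analysis was possible because the table holds 1 pooled value per cell type, and for the same reason no library could be left out. A value near 0 FPKM rests on few reads, whose number is unknown.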
